A study of Mus musculus with 2 samples.

Results

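Interferon-induced genes were followed, gene by gene, in single haematopoietic stem cells (HSCs) of mouse bone marrow. The set holds 40 genes named by symbol: the membrane proteins Ifitm1, Ifitm2 and Ifitm3, antiviral enzymes, GTPases of the Irg and Gbp families, RNA sensors and the transcription factors of the pathway. Of these, 39 had a row among the 32285 genes of the count matrices, and Mx1 was not analysed here. All cells came from bone marrow of C57Bl6 wild-type animals, whose age the series title gives as 8 weeks. Droplet libraries with a 3′ kit counted RNA molecules by unique molecular identifiers (UMIs), with 1 library per sorted population. Per the labels, the LT-HSC (long-term HSC) gate took LSK cells (lineage-negative, Sca-1- and Kit-positive) that were CD150+ but CD34-, CD48- and Flk2-. The ST-HSC (short-term HSC) gate took LSK cells that were CD34-, CD150+ and CD48+. The labels used here do not give the number of mice or say whether mice were pooled.

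Interferons are secreted proteins that cells release on viral or bacterial challenge. Type I interferons act through a receptor and Janus kinases on transcription factors, STAT2 and IRF9 among them, that bind the interferon-stimulated response element (ISRE) in the promoters of target genes. Interferon gamma acts through a receptor of its own, and many of its target genes carry the gamma-activated site (GAS). In bone marrow, interferon is known to bring resting HSCs into the cell cycle, and stem cells are known to hold some of these transcripts, Ifitm genes among them, without infection.

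Promoter sequences show what letters these genes share beyond their names. RefSeq promoters (GRCm38.p6, 250 bases before to 50 after the start) were matched for 31 of the 40 members. An ISRE-type pattern, TTTC and TTTC with any 2 bases between, was searched on both strands and lay in 18 of the 31 members' promoters, against 3.99% of 27025 promoters in the table. TTCNNNGAA, a GAS-type pattern that reads the same on both strands, lay in 13 of 31, against 9.55%. Both patterns lay in 7 of 31, against 0.614%. The sequences below were chosen because the 3 Ifitm genes differ in them while lying side by side on chromosome 7, and because Isg15, Ifit1, Igtp, Gbp7 and Irf1 represent the groups described later. The GENCODE M21 annotation starts Ifitm1 at 140967221, upstream of the RefSeq window that holds its printed bases. The lack of a match in Ifitm1 thus describes that window only. Capitals mark the matches, which can overlap each other, and a match is a description of letters, not of a bound site. Each runs 5′ to 3′ on the gene's own strand and ends at the base before the start, except that of Ifitm3, which covers the first 30 transcribed bases, where its matches lie.

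Ifitm1 (chr7:140967976-140968075, + strand, no match in the whole window): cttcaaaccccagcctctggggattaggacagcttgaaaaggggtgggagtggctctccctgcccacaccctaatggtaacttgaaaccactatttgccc
Ifitm2 (chr7:140955962-140956061, - strand, 1 ISRE-type match): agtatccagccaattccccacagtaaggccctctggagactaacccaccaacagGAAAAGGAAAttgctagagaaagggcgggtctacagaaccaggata
Ifitm3 (chr7:141010715-141010744, - strand, ISRE-type and GAS-type matches): agGAAAAGGAAAcTTCTGAGAAACCGAAAc
Isg15 (chr4:156200819-156200918, - strand, overlapping ISRE-type matches): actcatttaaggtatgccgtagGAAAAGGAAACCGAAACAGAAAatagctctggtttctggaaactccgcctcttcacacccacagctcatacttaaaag
Ifit1 (chr19:34640769-34640888, + strand, separate ISRE-type matches): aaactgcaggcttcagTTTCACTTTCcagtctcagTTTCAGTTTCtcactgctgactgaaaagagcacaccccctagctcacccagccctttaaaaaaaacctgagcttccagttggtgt
Igtp (chr11:58199456-58199555, + strand, a GAS-type and an ISRE-type match): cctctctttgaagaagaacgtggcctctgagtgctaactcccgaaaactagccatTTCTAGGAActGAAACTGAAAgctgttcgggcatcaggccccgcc
Gbp7 (chr3:142530216-142530335, + strand, GAS-type matches and an ISRE-type match): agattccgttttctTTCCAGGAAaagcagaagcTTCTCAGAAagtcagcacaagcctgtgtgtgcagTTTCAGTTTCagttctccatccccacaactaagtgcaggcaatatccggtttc
Irf1 (chr11:53769894-53770013, + strand, a GAS-type match): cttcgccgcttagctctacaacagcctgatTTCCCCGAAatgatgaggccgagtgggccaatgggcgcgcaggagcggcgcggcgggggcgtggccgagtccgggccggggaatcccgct

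Of the barcodes, 2722 of 2938 in the LT-HSC library and 6648 of 7586 in the ST-HSC library had at least 1000 genes and under 10% mitochondrial UMIs, with medians of 17595 and 13402 UMIs per cell. The libraries shared 8 barcodes. RNA of the gate genes went against the label of the ST-HSC library: Slamf1, which encodes CD150, stood at a CPM (counts scaled to a common total of UMIs) of 26.5 in the LT-HSC and 1.26 in the ST-HSC library, and Cd34 at 29.2 and 242 CPM. Directions below are therefore between the libraries as labelled. Cells were classed by UMIs per 10000: Hlf-high cells (at least 3 of Hlf, a stem cell transcription factor) numbered 774 in LT-HSC and 3107 in ST-HSC. Car1-high cells (at least 50 of Car1, an erythroid carbonic anhydrase) numbered 458 and 42, Pf4-high cells (at least 10 of Pf4, a megakaryocyte chemokine) 246 and 4, and Dntt-positive cells (at least 1 of Dntt, the lymphoid terminal transferase, and at least 2 UMIs) 1 and 805. A class is a range of RNA and not a cell type: in LT-HSC, 122 cells lay just below and 131 just above the Hlf limit, within 1.25-fold of it. Near the other limits lay 85 and 112 cells (Car1, LT-HSC), 21 and 17 (Pf4, LT-HSC), 333 and 398 (Hlf, ST-HSC) and 176 and 158 (Dntt, ST-HSC). In ST-HSC 704 cells passed both the Hlf and the Dntt limits and were put in neither class. The median cell of each of the 5 classes compared held none of the other classes' genes, except that Dntt-positive cells held a median of 0.976 Hlf UMIs per 10000.

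Values are CPM of UMIs summed over the cells of a class, with exact 95% intervals for the counting error. Neither population has a second library, so replicate error is unknown and nothing was tested. A gene is called higher or lower by size alone, at a ratio of at least 1.5 or at most 1/1.5. Only genes with a mean of at least 5 CPM over the 2 groups are called. A gene under 5 CPM in 1 of the groups passes that limit only through the other, so its direction follows from the limit. The shares of all genes come under the same limit. CPM is a share of a cell's RNA, so a fall in CPM and a rise in other RNA cannot be told apart. How much free RNA in the droplets adds to low values was not tested.

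The Ifitm genes, whose membrane proteins block the entry of viruses into cells, differed from each other across the classes. Ifitm1 was at 1798 CPM in the Hlf-high cells of LT-HSC, at 207 in Pf4-high cells and at 42.7 in Car1-high cells. In ST-HSC it was at 1014 CPM in Hlf-high and 564 in Dntt-positive cells. The 5 intervals of Ifitm1 did not overlap, and the highest value was 42.1 times the lowest. Ifitm3 followed the order LT-HSC Hlf-high (1618 CPM), Pf4-high (1274), ST-HSC Hlf-high (816), Dntt-positive (604) and Car1-high (411). Ifitm2 had the narrowest range of the 3 genes, 852 CPM in Pf4-high, 789 in LT-HSC Hlf-high, 548 in Car1-high, 545 in ST-HSC Hlf-high and 461 in Dntt-positive cells, so that its highest value was 1.85 times its lowest. The Ifitm2 intervals of Car1-high cells and ST-HSC Hlf-high cells overlapped.

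**Figure D1:**
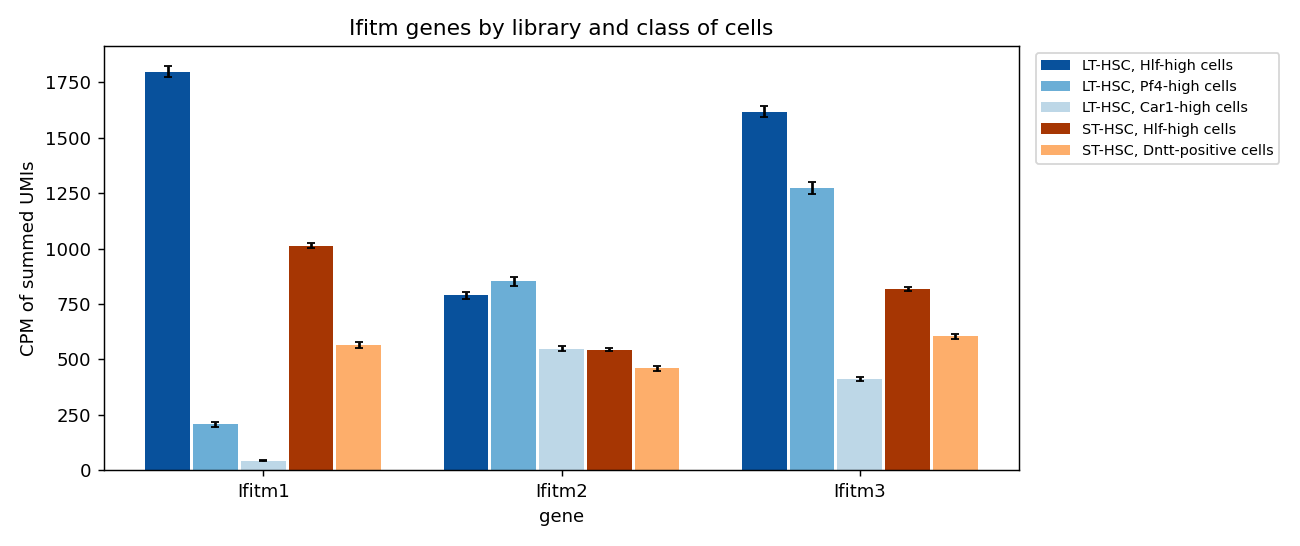
CPM of summed UMIs (y axis) of Ifitm1, Ifitm2 and Ifitm3 (x axis) in 5 classes of cells, with exact 95% Poisson intervals as bars. Ifitm1 runs from 1798 CPM in LT-HSC Hlf-high cells to 42.7 in LT-HSC Car1-high cells, while Ifitm2 stays between 852 and 461.

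Most Hlf-high cells held Ifitm1, and most Car1-high cells did not at equal depth. When 5000 UMIs were drawn from every cell (68 LT-HSC and 281 ST-HSC cells were too shallow), an Ifitm1 UMI was seen in 97.8% of LT-HSC Hlf-high cells (exact 95% interval 96.4 to 98.7) and in 12.5% of Car1-high cells (9.61 to 15.9). Without thinning the shares were 99.4% and 35.2%, at median depths of 12125.5 and 39551.5 UMIs. Pf4-high cells lay between, at 48.1% (41.7 to 54.6) after thinning. An Ifitm2 UMI was seen in at least 87.5% of the cells of all 5 classes after thinning.

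Ifitm1 also varied with the amount of Hlf inside each library. The bands of Hlf were chosen after seeing the data. In LT-HSC, Ifitm1 was at 106 CPM in cells with no Hlf UMI, 443 above 0 and under 1.5 Hlf UMIs per 10000, 1133 from 1.5 to 3, 1605 from 3 to 6 and 2128 from 6 to 12. In ST-HSC it was at 239, 499, 737, 836 and 989.8 CPM in the same bands and at 1278 from 12 upwards. Ifitm1 was thus higher in each next band of both libraries, although the Hlf-free cells held more of it in ST-HSC than in LT-HSC and the Hlf-rich cells less. Ifitm3 ran from 651 to 1733 CPM over the bands of LT-HSC and from 421 to 929.6 over those of ST-HSC. Ifi203, of the Pyhin family of nucleic acid binding proteins, ran from 56.3 to 260.2 CPM and from 117 to 318 CPM. Irf2, a transcription factor known to counter Irf1, ran from 82.5 to 293 CPM and from 126 to 327 CPM. Isg20, an RNA exonuclease, was highest in the cells with no Hlf UMI, at 102 CPM (LT-HSC) and 79.5 CPM (ST-HSC). From 1.5 Hlf UMIs upwards it lay between 44.0 and 51.7 CPM in LT-HSC and between 23.5 and 26.8 CPM in ST-HSC. Ifitm2 was at 647 CPM in the lowest and 785 in the highest band of LT-HSC.

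**Figure D2:**
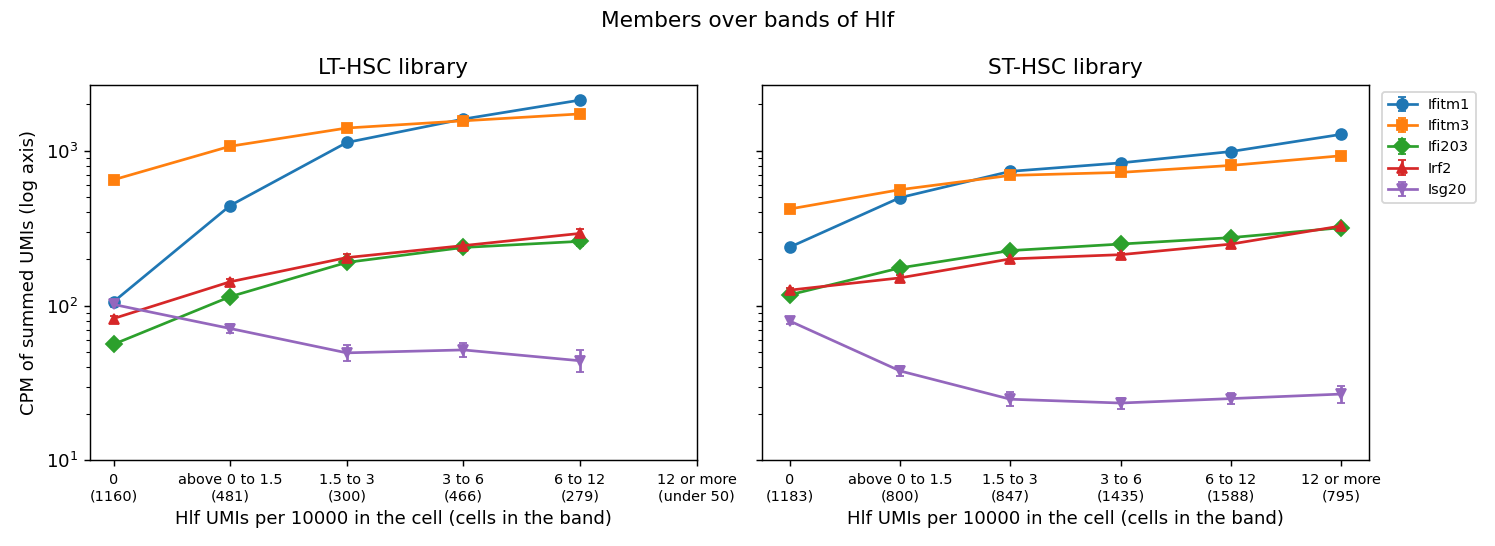
CPM (y axis, log scale) of 5 members in cells grouped by Hlf UMIs per 10000 (x axis, with the number of cells), in each library, with exact 95% Poisson intervals. Ifitm1 climbs from 106 to 2128 CPM in LT-HSC and from 239 to 1278 CPM in ST-HSC, while Isg20 is highest in the cells without Hlf. Bands of fewer than 50 cells are not drawn.

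The comparison the labels give is between the libraries, over all kept cells. Of 37 members tested, 5 were higher and 9 lower in ST-HSC, against 24.9% and 10.3% of the 10412 genes tested. The members' median log2 ratio was -0.06, and that of all genes was 0.12. With each ratio divided by the median of all genes, 4 members were higher and 13 lower, and TMM and median-of-ratios scaling gave the same counts. The shares of all genes under those scalings are not given here. Oas2 and Ifit3 were below the expression limit.

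Among GTPases, which attack the vacuoles of intracellular microbes, 5 of 7 were lower in ST-HSC and none higher. Ifi47 had 186 CPM in the LT-HSC library against 86.7 in ST-HSC, a ratio of 0.465 (0.453 to 0.478). Irgm1 (85.2 and 43.7 CPM), Igtp (108 and 64.4), Iigp1 (312 and 191) and Gbp7 (149 and 99.2) were also lower, with ratios from 0.513 to 0.664. Irgm2 and Gbp2 were at ratios of 0.723 and 0.870. Igtp and Irgm2 overlap on chromosome 11 in the annotation (58199556 to 58207591 and 58199618 to 58222782, both + strand), so the overlap may affect the counts of both. Irf1, the transcription factor of the interferon gamma response, was at 256 and 149.9 CPM (0.586, 0.573 to 0.598). Isg15, a ubiquitin-like protein joined to other proteins, was at 70.5 and 44.5 CPM (0.631), Isg20 at 80.7 and 37.3 CPM (0.463), and Bst2, the tether that holds virus particles at the cell surface, at 201 and 132 CPM (0.658). Leaving out the cells with 3 or more UMIs of other cell types' markers, 2305 of 2722 in LT-HSC and 5683 of 6648 in ST-HSC, gave Isg20 a log2 ratio of 0.17 in place of -1.11, and 3 members lower in place of 9. Another 7 were higher, against 6.55% of all genes lower and 26.5% higher. The mixture of classes changed too: the rule dropped 73.4% of Car1-high cells in LT-HSC and 21.4% in ST-HSC, against 84.7% and 85.5% of all cells. The part of that change in the move of Isg20 was not tested.

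Higher in ST-HSC were Ifi27l2a, with 5.80 CPM in the LT-HSC library against 33.8 (5.83, 5.24 to 6.50), and Oas3, a maker of the messenger oligoadenylate, at 6.20 and 12.4 CPM (2.01, 1.79 to 2.25). Ifi203 was at 116 and 221 CPM (1.91), the RNA-editing enzyme Adar at 21.7 and 37.3 CPM (1.72), and the ADP-ribosyltransferase Parp14 at 41.4 and 64.2 CPM (1.55). Ifitm1 was at 576 and 726 CPM (1.26, not called), Ifitm2 at 712 and 490.5 (0.689) and Ifitm3 at 985 and 672 (0.682). Hlf-high cells made up 28.4% of the LT-HSC and 46.7% of the ST-HSC cells, and without the Car1-high and Pf4-high cells 2 members were higher and 13 lower. The share of all genes without those cells is not given here.

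Of 98 other interferon pathway genes with rows, of 100 listed, 74 passed the expression limit, and 20 (27.0%) were higher and 11 (14.9%) lower in ST-HSC, beside 24.9% and 10.3% of all genes. Tmem173, the STING adaptor of DNA sensing, had 9.66 CPM in the LT-HSC library against 48.6 (5.03, 4.63 to 5.47). The DNA sensor Aim2 was at 44.5 and 92.7 CPM (2.08), and the lysosomal reductase Ifi30 at 22.4 and 47.6 (2.12). On the low side, the chemokine gene Cxcl10 was at 89.9 and 33.8 CPM (0.377), the GTPase gene Tgtp1 at 26.5 and 10.1 (0.381) and Ube2l6, the conjugating enzyme for ISG15, at 83.0 and 36.9 (0.445).

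Within Hlf-high cells, which had a mean of 14542.6 UMIs per cell in LT-HSC and 14489.4 in ST-HSC, more members were lower than higher in ST-HSC. The median Hlf level itself differed, at 5.41 UMIs per 10000 in LT-HSC and 7.46 in ST-HSC. Of 39 members tested, 15 were lower in ST-HSC and 1 was higher, against 12.6% and 15.6% of 10743 genes. With the class limits doubled, 8 of 38 were lower and 1 higher, against 14.1% and 16.8% of genes. The members' median log2 ratio was -0.36, against 0.0018 for all genes. Of the 39 ratios, 31 were below 1, and 29 had intervals wholly below 1.

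Ifitm1 (1798 CPM in LT-HSC, 1014 in ST-HSC; 0.564, 0.555 to 0.573) and Ifitm3 (1618 and 816; 0.504, 0.495 to 0.513) were lower, and Ifitm2 was at 789 and 545 CPM (0.691, not called). The GTPases again had 5 of 7 lower: Ifi47 (137 and 78.8 CPM, 0.576), Gbp7 (187 and 108, 0.579), Irgm1 (73.7 and 44.5, 0.603), Igtp (102 and 63.4, 0.624) and Iigp1 (317 and 203, 0.640). Irgm2 stood just outside the limit at 0.678 (0.614 to 0.749). Rsad2 was nearer still, at 0.668 (0.588 to 0.762).

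Irf1 had 258 CPM in the LT-HSC library against 151 (0.587, 0.562 to 0.613), and Irf7, which drives the interferon alpha genes, at 41.1 and 21.8 CPM (0.530, 0.474 to 0.594). Irf9 and Stat2, partners in the complex that binds the ISRE, were at ratios of 0.721 and 0.808, and Irf2 at 0.936. Of 13 antiviral effectors, 4 were lower and none higher. Ifit3 was at 7.91 and 3.04 CPM (0.385, 0.293 to 0.508) and Ifit1, which binds foreign RNA by its 5′ end, at 22.5 and 13.1 CPM (0.584, 0.503 to 0.679). Few cells carried these 2 genes. Over all kept cells of LT-HSC, the 27 cells with most (1%) held 71.7% of the Ifit3 and 39.8% of the Ifit1 UMIs. In ST-HSC the top 66 cells held 73.4% and 43.6%. The intervals do not cover that spread over cells. Isg20 was at 48.4 and 25.2 CPM (0.520) and Bst2 at 186 and 120.0 CPM (0.645). Ifit3 has a close copy, Ifit3b, which may affect its counts.

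Isg15 (67.3 and 39.1 CPM, 0.582) and Xaf1, a partner of the apoptosis inhibitor XIAP (49.6 and 31.4 CPM, 0.633), were lower too. The exception was Ifi27l2a, with 10.2 CPM in the LT-HSC library against 26.4 (2.58, 2.13 to 3.15). Adar, at 28.3 and 40.5 CPM, had a ratio of 1.43. Neither sensor was called: Ifih1 (MDA5, a sensor of long double-stranded RNA) was at 0.784 and Dhx58 (LGP2) at 0.879. Cycling cells made up 3.49% of the LT-HSC and 22.8% of the ST-HSC Hlf-high cells. Among cells not cycling, 10 members were lower and 2 higher, and Ifitm1 was at a log2 ratio of -0.63 in place of -0.83. With the Hlf range held to 3 to 6 UMIs per 10000 in both libraries, 17 members were lower and 1 higher. The shares of all genes among cells not cycling and in that Hlf range are not given here, so these counts have no background beside them.

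Of the other pathway genes, 16 of 73 tested (21.9%) were lower and 6 (8.22%) higher, beside 12.6% and 15.6% of all genes. Slfn2, of the Schlafen family, had 47.9 CPM in the LT-HSC library against 11.1 (0.231), Ifitm7 at 35.4 and 8.42 (0.238) and Gbp4 at 27.1 and 8.69 (0.321). Higher in ST-HSC were the DNA sensor Cgas (19.5 and 33.2 CPM, 1.70), Tmem173 (29.1 and 48.8, 1.68) and Ifnar2, a chain of the type I interferon receptor (107 and 167, 1.55). Plasmacytoid dendritic cells make much interferon-induced RNA, and 4 of their 8 listed markers (Siglech, Klk1, Cox6a2 and Ly6d) were at 0 in the LT-HSC Hlf-high cells, while Klk1 alone was at 0 in ST-HSC. Without Bst2, itself a member, the list had a summed level of 174 CPM in the LT-HSC library against 268. The T and NK cell list summed to 29.9 and 100.2 CPM, the lymphoid progenitor list to 33.8 and 469 CPM and the megakaryocyte list to 169 and 49.96 CPM. The dendritic cell list was higher in LT-HSC, at 1354 and 1075 CPM, as was the erythroid list, at 109 and 48.7 CPM. The neutrophil-monocyte progenitor list summed to 503 and 599 CPM and the macrophage or monocyte list to 169.5 and 166 CPM. Median mitochondrial shares were 1.88% and 3.56% of UMIs, against 1.60% and 3.47% over all cells of each library. The part of these lists and shares in the result was not tested.

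**Figure D3:**
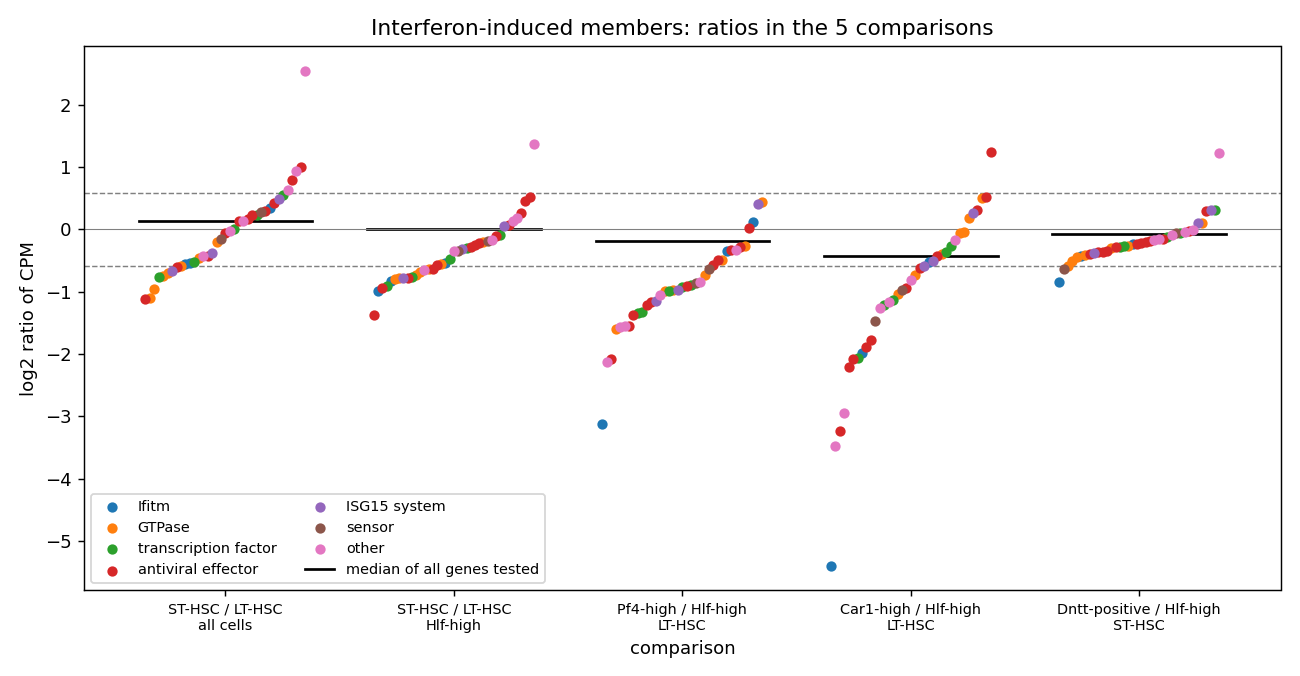
Log2 ratio of CPM (y axis) of each member tested in the 5 comparisons (x axis), coloured by role and ordered by value within a comparison, with a black line at the median of all genes and dashed lines at 1.5-fold. The points of the Hlf-high and Pf4-high comparisons lie mostly below the black line, and Ifitm1 is the lowest point against Car1-high cells at -5.40.

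Pf4-high cells were compared with Hlf-high cells of the same LT-HSC library. Of 37 members tested, 25 were lower in Pf4-high cells and none was higher, against 28.9% and 13.4% of 10467 genes. The members' median log2 ratio was -0.92 and that of all genes -0.19. This contrast and the next share their Hlf-high cells with the one above.

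All 5 transcription factors were lower in Pf4-high cells, from Irf9 (72.5 CPM in Hlf-high, 28.7 in Pf4-high; 0.396, 0.338 to 0.462) to Irf1 (258 and 139; 0.537). Irf7 was at 41.1 and 16.4 CPM (0.399), Irf2 at 262 and 132 (0.504) and Stat2 at 49.8 and 26.3 (0.528). Both sensors were lower, Dhx58 at 16.5 and 9.05 CPM (0.548) and Ifih1 at 52.2 and 33.6 CPM (0.643). Ifitm1 was 8.67-fold lower (8.23 to 9.15), the largest difference among the members tested here, while Ifitm3 was at a ratio of 0.787 and Ifitm2 at 1.08.

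Of the effectors, 6 of 11 were lower: Oas3 (0.235), Ifit1 (22.5 and 7.66 CPM, 0.341), Oasl2 (72.0 and 27.8, 0.387), Rsad2 or viperin (28.8 and 12.4, 0.431), the dNTP hydrolase Samhd1 (134 and 59.6, 0.445) and the nucleic acid sensor Zbp1 (28.4 and 15.0, 0.529). Oas3 was under 5 CPM in Pf4-high cells, so it could only be called lower. The GTPases split, with Gbp2 (84.4 and 28.0 CPM, 0.332), Iigp1 (317 and 159, 0.502), Irgm2 (0.507) and Gbp7 (0.601) lower and Ifi47 at 1.35. Rtp4 (56.9 and 12.9 CPM, 0.227), Ifi203 (249.9 and 84.0, 0.336), Parp14 (62.7 and 21.3, 0.340), Xaf1 (0.480), Ifi27l2a (0.559), Isg15 (0.507) and Trim25, a ubiquitin ligase of RNA sensing (0.452), completed the list. Ifi27l2a had few UMIs and turned to a log2 ratio of 0.21 among cells not cycling, where 24 members were lower. The share of all genes lower among cells not cycling is not given here.

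A Pf4-high cell held 29194.2 UMIs on average against 14542.6 in an Hlf-high cell. By UMIs per cell 9 members were 1.5-fold higher and 4 lower, against 63.0% and 7.82% of all genes. Among the other pathway genes, 47 of 72 (65.3%) were lower and 2 (2.78%) higher, beside 28.9% and 13.4% of all genes: Ifitm7 (35.4 and 1.53 CPM), Phf11b (22.7 and 1.39) and the cytokine gene Il18 (46.1 and 6.13) were lowest, and Ifi30 (4.44 and 23.4 CPM, 5.27) and Cgas (19.5 and 39.0, 1.99) were higher. Cycling cells made up 42.3% of the Pf4-high class.

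Car1-high cells, against the Hlf-high cells of LT-HSC, had Ifitm1 and Ifitm3 at a far smaller share of their RNA, while 3 of 7 GTPases stood near equal shares and 2 were lower. Of 37 members, 22 were lower and 1 higher, against 45.1% and 17.5% of 10265 genes, so the share lower, 59.5%, stood on a high background. The members' median log2 ratio was -0.81 and that of all genes -0.44. The split moved with scaling: TMM gave 12 lower and 8 higher, median-of-ratios factors 11 and 8, and division by the median of all genes 16 and 6. The 45.1% and 17.5% of all genes are for the main ratios. The shares under each scaling are not given here, so these counts cannot be set against a background. A Car1-high cell held 42863.9 UMIs on average, 2.95 times as many as an Hlf-high cell. By UMIs per cell 20 members were higher and 5 lower, against 67.2% and 14.3% of all genes.

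Ifitm1 was 42.1-fold lower (39.3 to 45.1), with 1.83 UMIs per Car1-high cell against 26.2 per Hlf-high cell, and Ifitm3 was 3.94-fold lower (3.84 to 4.04), with 17.6 UMIs per Car1-high cell against 23.5. Among cells not cycling the log2 ratio of Ifitm1 was -4.67, in place of -5.40. Ifi27l2a (10.2 CPM in Hlf-high and 0.917 in Car1-high, 0.0897), Rsad2 (28.8 and 3.06, 0.106) and Ifi203 (249.9 and 32.3, 0.129) followed. The antiviral genes Ifit1 (0.215), Oas3 (0.238), Ifit2 (0.270) and Oasl2 (0.290) were 3.45-fold to 4.64-fold lower, and Irf2 was at 262 and 62.9 CPM (0.240, 0.224 to 0.256). Ifi27l2a, Rsad2, Oas3 and Ifit1 were under 5 CPM in Car1-high cells, so they could only be called lower.

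Also lower were Dhx58 (0.361), Rtp4 (0.417), Stat2 (0.430), Parp14 (0.443), Irf9 (0.457), Irgm2 (0.487), Ifih1 (0.508), Adar (0.521), Xaf1 (0.569), Gbp7 (0.602), Samhd1 (0.650) and Trim25 (0.666), and the last 2 turned above 0 on the log2 scale under TMM and median-of-ratios scaling. Isg20 was the one member higher, at 48.4 CPM in Hlf-high and 114 in Car1-high cells (2.36, 2.14 to 2.59). Several members stood close to equal shares: Gbp2 (84.4 and 80.9 CPM), Igtp (102 and 98.5), Irgm1 (73.7 and 83.4) and Isg15 (67.3 and 80.3). Ifi47 was at 137 and 193 CPM (1.41). Of the other pathway genes 47 of 73 (64.4%) were lower and 4 (5.48%) higher, beside 45.1% and 17.5% of all genes, with Ifitm7 at 35.4 and 0.204 CPM and Tmem173 at 29.1 and 0.408 CPM on the low side, and Ifi30 (4.44 and 35.3 CPM, 7.95), Cxcl10 (28.7 and 95.8, 3.34) and Ifngr1, a chain of the interferon gamma receptor (106 and 209.9, 1.99), on the high side. Cycling cells made up 66.8% of the Car1-high class.

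Cells with some Car1, below the limit of the class, were not between the extremes for every member. These bands were chosen after seeing the data. In LT-HSC, Irf1 was at 213 CPM in the 1184 cells with no Car1 UMI, 229 above 0 and under 5 Car1 UMIs per 10000, 491 from 5 to 25, 372 from 25 to 50, 221 from 50 to 100 and 185 from 100 upwards. Iigp1 followed with 272, 317, 606, 402, 262 and 149 CPM. Both were highest in the band from 5 to 25, as were Gbp2 (137 CPM, against 64.0 with no Car1), Irgm1 (133 and 69.0) and Irgm2 (70.2 and 36.4).

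Against the Car1-free cells of LT-HSC, the 184 cells of that band had 9 of 37 members higher and 9 lower, against 8.26% and 17.7% of 10326 genes. Irf1 was 2.31-fold (2.19 to 2.43), Iigp1 2.22-fold (2.12 to 2.33), Gbp2 2.14-fold, Irgm1 and Irgm2 1.93-fold, Isg20 1.72-fold, Zbp1 1.62-fold, Samhd1 1.55-fold and Isg15 1.51-fold higher. Lower were Ifitm1 (0.334), Ifitm3 (0.519), Ifit1, Ifit2, Ifi27l2a, Ifi203, Rsad2, Irf2 and Dhx58. Of these, Ifi27l2a was under 5 CPM in the band and could only be called lower. The median cell carried 3.58 Irf1 UMIs per 10000 in the band and 1.33 in the Car1-free cells. For Irgm2, Zbp1 and Isg15 the median cell had none in either group. Among cells not cycling 11 members were higher and 5 lower, and in cells with under 1.5 Hlf UMIs per 10000, 11 and 6. The shares of all genes in those subsets of cells are not given here.

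In ST-HSC the same band, of 147 cells against 5533, had 3 of 38 members higher and 12 lower, against 17.8% and 32.1% of 10280 genes. Isg20 was 7.57-fold higher (6.94 to 8.25), at 20.8 and 157 CPM, and Isg15 (1.62) and Usp18, which removes ISG15 from proteins (1.51), were the others. Irf1 was at 152 CPM with no Car1 and 119.8 in the band (0.786, 0.722 to 0.855), and Iigp1 at 191 and 176 CPM (0.917). In the band, 40.8% of the LT-HSC and 81.6% of the ST-HSC cells were cycling, with medians of 18698.5 and 32395 UMIs, and their part in the difference between the libraries was not tested.

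**Figure D4:**
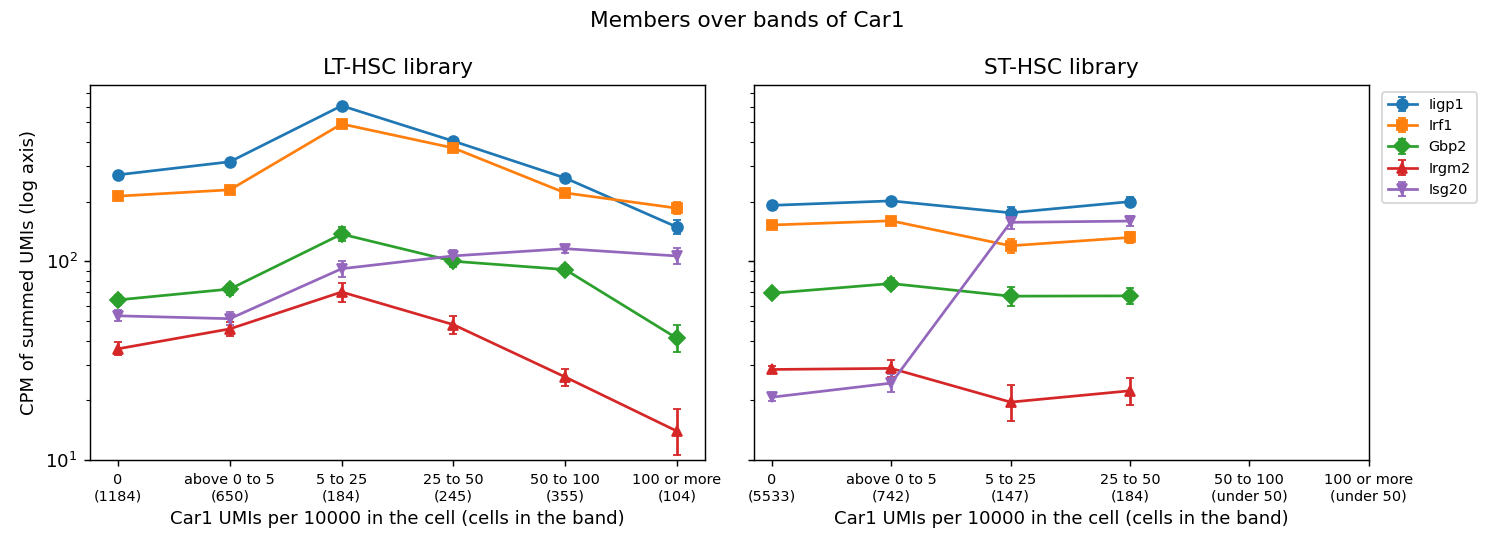
CPM (y axis, log scale) of 5 members in cells grouped by Car1 UMIs per 10000 (x axis, with the number of cells), in each library, with exact 95% Poisson intervals. In LT-HSC Iigp1 and Irf1 peak at 606 and 491 CPM in the band from 5 to 25, and in ST-HSC they stand at 176 and 119.8 CPM there. Bands of fewer than 50 cells are not drawn.

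Dntt-positive cells, which carry the transferase of early lymphoid cells, were close to the Hlf-high cells of the same ST-HSC library. Of 38 members tested, 3 were lower and 1 higher, against 8.04% and 3.14% of 10471 genes, and with TMM, median-of-ratios or median scaling 1 was lower and 1 higher. Those shares of all genes are for the main ratios only. The median log2 ratio was -0.23 for the members and -0.07 for all genes. Ifitm1 was at 1014 CPM in Hlf-high and 564 in Dntt-positive cells (0.556, 0.543 to 0.570), Ifih1 at 40.9 and 26.4 CPM (0.645, 0.575 to 0.722) and Irgm2 at 32.9 and 21.9 CPM (0.665). Ifitm2 was at a ratio of 0.846 and Ifitm3 at 0.740. Ifi27l2a was at 26.4 and 61.4 CPM (2.33, 2.13 to 2.55). Of the other pathway genes 12 of 75 were lower and 4 (5.33%) higher, beside 8.04% and 3.14% of all genes, with Il18 (38.4 and 23.3 CPM, 0.606), the ADP-ribosyltransferase gene Parp12 (25.1 and 16.2, 0.645) and Uba7, the activating enzyme for ISG15 (56.0 and 36.5, 0.652), among the lower. Cycling cells made up 22.8% and 40.1% of these classes.

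Over the 5 classes, 23 of 39 members had their highest CPM in the LT-HSC Hlf-high cells, a place that 26.8% of 10418 genes also had. Among those members, the intervals of Ifit2, Ifi35, Igtp, Gbp2 and Dhx58 overlapped those of the class ranked second. Car1-high cells held the highest level of 6 members and of 21.3% of all genes, ST-HSC Hlf-high cells of 6 and 25.2%, Pf4-high cells of 2 and 12.2%, and Dntt-positive cells of 2 and 14.5%. The lowest level of 14 members lay in Car1-high cells, which held the lowest of 50.4% of all genes, and that of another 14 in Pf4-high cells, which held the lowest of 10.5%. Eif2ak2 (the kinase PKR), Ifi35, Ifitm2 and Usp18 were tested in all 5 comparisons and called in none, and Ifi27l2a was called in all 5. Oas2 was not called between the Hlf-high cells or in Dntt-positive cells, and was below the expression limit in the other comparisons. Its highest value, 8.46 CPM in ST-HSC Hlf-high cells, was 11.9 times its lowest, 0.713 in Car1-high cells.

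Cells were called antiviral-rich when at least 5 of 13 members (Isg15, Ifit1, Ifit2, Ifit3, Oas2, Oas3, Oasl2, Rsad2, Usp18, Rtp4, Irf7, Zbp1 and Dhx58) had a UMI after thinning to 5000. This rule was set after seeing the data, and values of those 13 genes in these cells follow from it. There were 111 such cells of 2654 in LT-HSC (4.18%) and 228 of 6367 in ST-HSC (3.58%). They made up 4.75% of LT-HSC Hlf-high, 2.85% of Car1-high, 0.412% of Pf4-high (1 cell), 3.78% of ST-HSC Hlf-high and 3.53% of Dntt-positive cells. Their median depth was 13293 UMIs against 18374 in the remaining LT-HSC cells, and 10281.5 against 14086 in ST-HSC. Cycling cells were 13.5% against 30.6%, and 17.1% against 33.6%.

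The 26 members not used to choose the cells moved with them in both libraries. In each, 24 of 26 were at least 1.5-fold higher in the antiviral-rich cells, against 8.15% of 10223 genes in LT-HSC and 6% of 10627 in ST-HSC. Xaf1 was at 158 CPM in antiviral-rich and 34.3 in the remaining cells of LT-HSC (4.61, 4.06 to 5.21), and at 116 and 25.4 CPM in ST-HSC (4.57, 4.07 to 5.10). Iigp1 was at 1199 and 285 CPM (4.21) and at 592 and 178 CPM (3.32). Stat2 was at ratios of 4.48 and 3.23, Parp14 of 4.18 and 3.94, and Ifih1 of 2.93 and 4.12.

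Ifitm3 was at 2123 and 951 CPM (2.23) in LT-HSC and at 1385 and 651 CPM (2.13) in ST-HSC, and Ifitm1 at ratios of 1.66 and 1.53. The exceptions in both libraries were Ifitm2 (1.09 and 1.02) and Irf2 (1.36 and 1.40). Of the other pathway genes, 59 of 79 in LT-HSC and 62 of 86 in ST-HSC were higher, beside 8.15% and 6% of all genes. Some of them passed the limit of 5 CPM only through the antiviral-rich cells and could only be called higher. Ifit3b in LT-HSC was 1 such gene, at 12.5 CPM in antiviral-rich and 0.112 in the remaining cells. Summed over its list, plasmacytoid dendritic cell RNA was at 183 and 102 CPM in the antiviral-rich and remaining cells of LT-HSC and at 332 and 263 CPM in ST-HSC. Bst2, itself a member and a marker on that list, was left out of these sums. The dendritic cell list, which includes H2-Aa and Cd74, summed to 1401 and 709 CPM, and to 2407 and 1626 CPM. This list also summed to 1354 CPM in LT-HSC Hlf-high cells, where Itgax, Cd209a and Xcr1 were at 0, so it does not measure dendritic cells alone. The part of those cell types in the result was not tested. Without the antiviral-rich cells, 15 of 38 members were lower and 1 higher in ST-HSC within Hlf-high cells, where 39 members were tested with them. The share of all genes without the antiviral-rich cells is not given here.

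**Figure D5:**
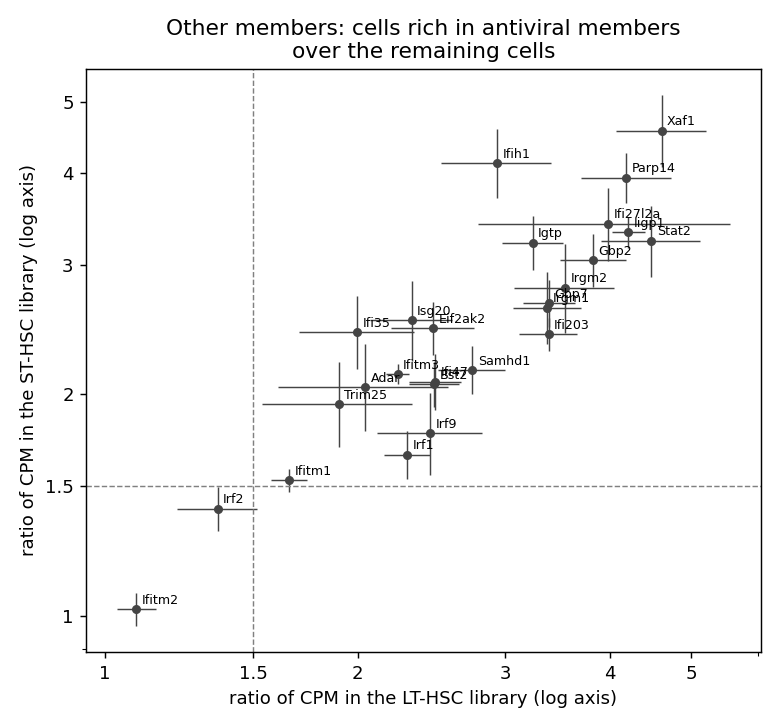
Ratio of CPM in antiviral-rich over remaining cells for the 26 members not used to choose them, in LT-HSC (x axis, log scale) and ST-HSC (y axis, log scale), with exact 95% intervals and dashed lines at 1.5-fold. Ifitm2 (1.09 and 1.02) and Irf2 (1.36 and 1.40) lie inside the lines in both libraries, and Xaf1 (4.61 and 4.57) lies highest.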

How the data were processed

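The deposited files hold whole-number counts of UMIs per gene and cell, 1 filtered matrix per library. The authors made them with Cell Ranger 7.2 and mm10 per the submitters' processing notes, while the file headers name version 7.1.0. No column of per-sample values was left unused. Cells with at least 1000 genes and under 10% mitochondrial UMIs were kept, counts were summed over the cells of a class and scaled to CPM of all UMIs. Ratios carry exact conditional (Clopper-Pearson) 95% intervals and levels exact Poisson intervals, which cover counting error only (scipy 1.17.1). With 1 library per population there is no test. Depth is given by library in the results. Members called by size and the 3 Ifitm genes are given by value in each comparison, and of the pathway list the up to 3 highest and 3 lowest called genes that reach 20 CPM. A cell counts as cycling when at least 1% of its UMIs come from a list of S, G2 and M phase genes. Scrublet (scanpy 1.11.5) marked 7 LT-HSC and 0 ST-HSC cells, so it did not work in ST-HSC, and all cells were kept. An alternative dropped the 64 and 403 cells with the highest scores. Other alternatives were TMM (edgeR 4.0.16) and median-of-ratios scaling, the mean of each cell's CPM, no expression filter, a 2-fold rule, every barcode, at least 2000 genes per cell, changed class limits, and leaving out cycling cells or cells with other types' markers. Ratios were tested on simulated data. Of the gene IDs, 32158 were in GENCODE M21, and promoters came from RefSeq GRCm38.p6. The members and lists were chosen with earlier results of these data known. Counts of close copies (the Ifitm, Gbp, Ifi203 and Ifit3 families) may be affected by reads that match more than 1 gene.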

Additional observations from a re-analysis of the deposited data

Results flagged for a closer look

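Cells with 5 to 25 Car1 UMIs per 10000, set against cells with no Car1 UMI, had ratios on opposite sides of 1 in the 2 libraries for several members. For 4 of them both 95% intervals left out 1 and at least 1 ratio passed 1.5-fold. Irf1 had a ratio of 2.31 in the LT-HSC and 0.786 in the ST-HSC library, and Iigp1 of 2.22 and 0.917. Irgm2 was at 1.93 and 0.685, and Parp14 at 1.44 and 0.554. With 1 library each, the difference between the libraries was not tested.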

How the results depend on the processing

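No paired analysis was possible because each population has 1 library, and for the same reason no replicate could be left out. Of the counts of members higher or lower, 130 values under an alternative stayed within 1.5 times the main count and 32 did not. For single members 888 log2 ratios moved by less than their counting interval, 355 by more, and 6 changed sign. The 888 include the ratios without the expression filter and under the 2-fold rule. Those equal the main ratios by construction, so the 888 overstate how steady the ratios were. For ST-HSC against LT-HSC over all cells, a 2-fold rule gave 2 higher and 2 lower, leaving out cells with 3 or more UMIs of other cell types' markers gave 3 lower and turned Isg20 to a log2 ratio of 0.17, and leaving out Car1-high and Pf4-high cells gave 2 higher. Within Hlf-high cells, the mean of each cell's CPM gave 2 higher, the 2-fold rule 1 lower, leaving out cells with other types' markers 3 higher, cells not cycling 2 higher and doubled class limits 8 lower. For Pf4-high cells, TMM, median-of-ratios and median scaling each gave 2 higher, the 2-fold rule 14 lower, doubled limits 1 higher and leaving out antiviral-rich cells 1 higher, and Ifi27l2a was at 0.21 among cells not cycling. For Car1-high cells, TMM gave 8 higher and 12 lower with Trim25 at 0.062 and Samhd1 at 0.027, and median-of-ratios factors gave 8 higher and 11 lower with Trim25 at 0.14 and Samhd1 at 0.11. Cells not cycling gave 4 higher there, median scaling 6 and leaving out antiviral-rich cells 2. For Dntt-positive cells, TMM, median-of-ratios, median scaling and the mean of each cell's CPM each gave 1 lower, the 2-fold rule 0 lower, leaving out cells with other types' markers 3 higher, cells not cycling 2 higher and leaving out antiviral-rich cells 5 lower. For the Car1 band, cells not cycling gave 5 lower in LT-HSC, and cells with under 1.5 Hlf UMIs per 10000 gave 5 higher in ST-HSC. Apart from the 2-fold rule, whose construction calls fewer genes, the cause of these moves was not tested. Median scaling, leaving out antiviral-rich cells and the Car1 band alternatives were chosen after seeing the data. Counts in this section stand without the share of all genes at the same setting. Car1-high against Hlf-high cells in ST-HSC was not run, with 42 cells, nor were cells not cycling in the ST-HSC band or Pf4-high cells without other types' markers, where too few cells were left. Intervals cover counting error only, and differences between mice or between library preparations cannot be told apart from those between the populations.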
